A study of Mus musculus with 6 samples.

Results

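Neuropeptide precursor genes encode secreted proteins that neurons cut into short signalling peptides. In the prefrontal cortex of mice, 10 such genes (Npy, Sst, Vip, Cck, Crh, Penk, Pdyn, Tac1, Cort and Nts) were compared between Nrf2 knockout and wild type, out of 18079 genes with a tested probe. Members were taken by gene name: a probe belonged to a gene if its array name was the gene's symbol or its transcript was a RefSeq transcript of that gene. This gave 21 of the 150305 probes on the array, and 20 of these were among the 105922 probes bright enough to be tested. Probes of 1 gene are called A, B and C.

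The first group held 3 samples labelled Nrf2 knockout, and the wild type group held 3 samples. Both groups were male mice of the ICR strain, 3 to 4 months old, and no treatment is named in the labels. Nrf2, made from the gene Nfe2l2, is a transcription factor that switches on antioxidant and detoxifying genes. The labels do not say which part of the gene is missing or in which cells. They also leave unsaid if the samples of a group are different animals, so the p-values rest on sample-to-sample spread that may be technical. Each sample's total RNA was hybridised to 1 single-colour Agilent array. Values are log2 normalised signals, in which 0 is the array's own 75th percentile and a difference of 1 is a doubling, and levels of different probes are not comparable.

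Neuropeptides are stored in dense-core vesicles and released on stronger firing than the fast transmitters. They act through G-protein-coupled receptors. In cortex, Sst, Npy, Vip, Cort, Crh and some Cck and Tac1 mark classes of inhibitory interneurons, while Cck is also made by excitatory neurons. Penk and Pdyn encode the precursors of the enkephalins and dynorphins, the brain's own opioids, and are abundant in the striatum next to the cortex, as is Tac1. Many of these genes respond to neuronal activity through the factor CREB.

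Several probes lie on the stretch of messenger RNA that encodes the released peptide itself, so those array values are read from the peptide's own codons. The sequences below come from the deposited scanner files, on build mm9, and are written 5′ to 3′ in the sense direction with the peptide's codons in capitals. Penk B, at chr4:4061458-4061517 on the minus strand, covers 2 copies of Met-enkephalin, split by a pair of basic codons at which the precursor is cut. Tac1 A, at chr6:7507722-7509136 on the plus strand, covers neurokinin A, and since its 60 bases span 1415 bases of genome it crosses at least 1 exon junction. Nts A, at chr10:101944967-101945026 on the minus strand, covers neurotensin after its first codon. Npy A, at chr6:49773743-49777505 on the plus strand, covers the C-terminal end of neuropeptide Y and also crosses a junction, with a span of 3763 bases. Of Sst A, at chr16:23889776-23889835 on the minus strand, the first 21 bases are shown, which hold the last codons of somatostatin and the stop codon.
Penk B: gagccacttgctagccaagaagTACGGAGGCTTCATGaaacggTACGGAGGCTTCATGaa
Tac1 A: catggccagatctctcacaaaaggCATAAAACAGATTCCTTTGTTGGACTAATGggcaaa
Nts A: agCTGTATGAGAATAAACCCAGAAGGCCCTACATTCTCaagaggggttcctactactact
Npy A: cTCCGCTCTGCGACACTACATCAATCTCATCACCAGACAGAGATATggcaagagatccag
Sst A: AAGACATTCACATCCTGTtag

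The arrays were of like brightness, with 71.0 to 73.4% of probes well above background, but they were not balanced over slides. Knockout 1 and the 3 wild type arrays lay on slide 1, and knockouts 2 and 3 on slide 2, apart from all others on the first principal component. Differences are for this reason repeated with slide as a block, a fit in which the genotype difference rests on knockout 1. Wild type 1 had 186 spots with an outlier flag, against 13 to 36 on the other arrays. Nfe2l2 matched the labels at its coding probes. One measured −3.74, −3.79 and −3.46 in the knockouts, against 0.49, 0.39 and 0.35 in wild type, a log2 difference of −4.08 (SE 0.12, limma adjusted p = 6.13e-04).

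None of the 10 precursor genes changed past the threshold in cortex without Nrf2. Limma called 0 of the 20 tested member probes at an adjusted p under 0.05, against 0.00944% of all tested probes (10 of 105922). At an unadjusted p under 0.05 there was 1 member probe, Vip A, where 15.1% of all tested probes passed. The groups did not overlap at 3 of the 20 probes, against 21.6% of all tested probes. These were Vip A and Vip B, lower in the knockout (10.4% of all tested probes were lower without overlap), and Pdyn A, higher in the knockout (11.1% of all). Adjusted p-values of the members ran from 0.329 to 0.986. Of the 20 differences, 8 were above 0 and 12 below, with a median of −0.02 on the log2 scale, beside 0.028 over all tested probes. With slide as a block, 0 members passed, beside 0.00661% of all tested probes. In that fit 5 differences were above 0 and 15 below, the median was −0.081 and the lowest limma adjusted p was 0.883. With 1 probe per gene, the median under the block was −0.088 for the members, beside −0.058 for all 18079 genes. On slide 1 alone, 0 members and 0.00378% of all tested probes passed.

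All 20 of the 95% intervals lay within 1 log2 unit of 0, short of a doubling or a halving of signal, and 13 lay within 0.5. That fit takes no account of slide. Under the slide block, all 20 again lay within 1 log2 unit and 10 within 0.5. Standard errors ran from 0.083 to 0.22 with a median of 0.13, the same to 2 decimals as over all tested probes (0.128). With 3 arrays per group, differences of this size or smaller can fail to pass the threshold. In data simulated with the spread of the wild type arrays, 51% of added differences of 1 log2 unit passed, and 83% of 2. Those arrays all lay on slide 1 and no slide effect was simulated, so these shares do not cover the slide imbalance. In tissue RNA, fewer cells of a type and less RNA per cell cannot be told apart.

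**Figure D1:**
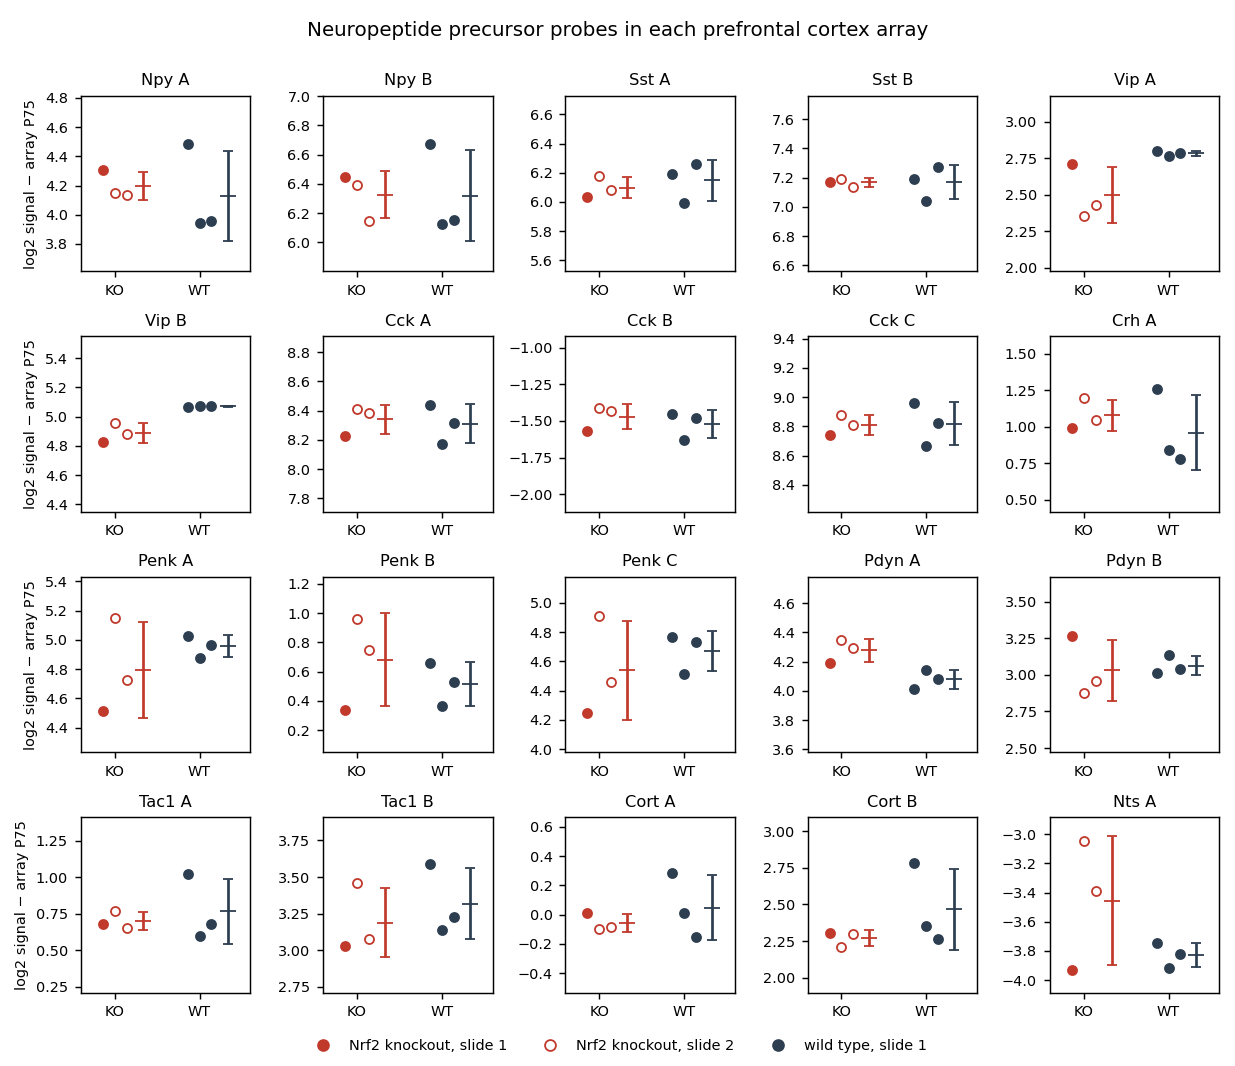
Log2 normalised signal (y axis, signal minus the array's 75th percentile) of the 20 tested member probes, with knockout (KO) left of wild type (WT) and a y range of the same height in every panel. Points are single arrays, filled on slide 1 and open on slide 2, and bars are mean ± SD of 3 arrays; only Vip A, Vip B and Pdyn A have groups that do not overlap.

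Sst, the precursor of somatostatin, the inhibitory peptide of a large class of cortical interneurons, had knockout values inside the wild type range, and its probe B had one of the smaller standard errors of the members. Sst A measured 6.04, 6.17 and 6.08 in the knockouts, against 6.19, 5.99 and 6.26 in wild type. Sst B measured 7.17, 7.19 and 7.14 in the knockouts, against 7.19, 7.04 and 7.28 in wild type. Wild type 2 was the lowest array and wild type 3 the highest at both probes. The log2 difference was −0.05 at Sst A (SE 0.11, 95% interval −0.30 to 0.20, limma adjusted p = 0.815). At Sst B the interval was −0.23 to 0.22, in fold terms 0.851 to 1.17 of wild type (limma adjusted p = 0.986).

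Cort encodes cortistatin, a close relative of somatostatin made by cortical interneurons. Cort B measured 2.31, 2.21 and 2.30 in the knockouts, against 2.78, 2.35 and 2.27 in wild type. Cort A measured 0.01, −0.10 and −0.08 in the knockouts, against 0.28, 0.01 and −0.15 in wild type. Wild type 1 stood above the other 5 arrays at both probes, and without it the groups overlapped too. The log2 differences were −0.20 at Cort B (SE 0.15, limma adjusted p = 0.51) and −0.10 at Cort A (SE 0.13, limma adjusted p = 0.683). Without wild type 1 they were −0.04 and 0.01.

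Npy encodes neuropeptide Y, which many somatostatin cells and neurogliaform cells release. Npy A measured 4.31, 4.15 and 4.13 in the knockouts, against 4.48, 3.95 and 3.96 in wild type. Npy B measured 6.44, 6.39 and 6.15 in the knockouts, against 6.68, 6.13 and 6.15 in wild type. Wild type 1 was again the highest array at both probes, and wild types 2 and 3 were at or near the bottom. The log2 difference was 0.07 at Npy A (SE 0.16, 95% interval −0.33 to 0.47, limma adjusted p = 0.839) and 0.01 at Npy B (SE 0.18, limma adjusted p = 0.985). Without wild type 1, Npy A gave 0.25 and Npy B 0.19 (limma adjusted p = 0.415 and 0.516).

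Vip, the precursor of vasoactive intestinal peptide, marks interneurons that inhibit other interneurons. It was the member gene with lower values in every knockout array than in any wild type array at both of its probes. Vip A measured 2.71, 2.35 and 2.43 in the knockouts, against 2.80, 2.76 and 2.78 in wild type. Vip B measured 4.83, 4.96 and 4.88 in the knockouts, against 5.07, 5.07 and 5.07 in wild type. The wild type arrays lay very close together, with SDs of 0.018 at Vip A and 0.002 at Vip B, and the knockout arrays were more spread, with SDs of 0.19 and 0.066. The log2 difference was −0.29 at Vip A (SE 0.12, 95% interval −0.57 to −0.01) and −0.18 at Vip B (SE 0.08, interval −0.38 to 0.02). Neither passed, with limma adjusted p = 0.329 and 0.348.

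The 2 Vip probes differed in which knockout array was lowest. At Vip A, knockout 1, on the slide of the wild type arrays, was near them, and knockouts 2 and 3 on slide 2 were lower. At Vip B, knockout 1 was the lowest. The slide block gave Vip A at −0.07 (limma adjusted p = 0.962) and Vip B at −0.24 (95% interval −0.49 to 0.005, limma adjusted p = 0.883). Without knockout 1, Vip A gave −0.39 and passed (limma adjusted p = 0.0349), while Vip B gave −0.15 (0.25). In that fit 12.8% of all tested probes passed, and slide and genotype cannot be told apart.

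Cck encodes cholecystokinin, found in basket interneurons and in excitatory cells of cortex. Cck A measured 8.23, 8.41 and 8.38 in the knockouts, against 8.44, 8.17 and 8.32 in wild type. Cck C measured 8.74, 8.88 and 8.81 in the knockouts, against 8.96, 8.67 and 8.82 in wild type. At both probes the knockout arrays lay inside the wild type range. Cck B measured −1.57, −1.41 and −1.43 in the knockouts, against −1.45, −1.63 and −1.48 in wild type, and the groups overlapped there too. The log2 differences were 0.03, 0.05 and −0.01 at probes A, B and C, with standard errors of 0.11, 0.10 and 0.11 and limma adjusted p = 0.896, 0.806 and 0.97. The direction was not stable: with slide as a block all 3 were below 0 (−0.08, −0.05 and −0.08), and quantile normalisation turned probe C to 0.03.

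Crh encodes corticotropin-releasing hormone, the starter of the stress hormone axis in the hypothalamus, which some cortical interneurons also make. Its 1 probe measured 0.99, 1.20 and 1.05 in the knockouts, against 1.26, 0.84 and 0.78 in wild type. The knockout arrays lay between wild type 1 above and wild types 2 and 3 below. The log2 difference was 0.12 (SE 0.15, 95% interval −0.24 to 0.48, limma adjusted p = 0.682), and it was 0.27 without wild type 1.

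Penk, the enkephalin precursor, had its widest spread among the knockout arrays. Penk A measured 4.51, 5.15 and 4.72 in the knockouts, against 5.03, 4.88 and 4.96 in wild type. Penk C, which shares 55 of its bases with Penk A, measured 4.24, 4.91 and 4.46 in the knockouts, against 4.76, 4.51 and 4.74 in wild type. Knockout 1 was the lowest array and knockout 2 the highest at both probes, so the wild type range lay within the knockout range. Penk B, on the Met-enkephalin codons printed above, measured 0.34, 0.96 and 0.75 in the knockouts, against 0.66, 0.36 and 0.53 in wild type. There, too, knockout 1 was lowest and knockout 2 highest, while knockout 3 lay above all wild type arrays, where at probes A and C it lay below them.

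The Penk differences were −0.16 at probe A (SE 0.17), 0.16 at probe B (SE 0.18) and −0.13 at probe C (SE 0.18), with limma adjusted p = 0.629, 0.635 and 0.715. Under the slide block, which sets knockout 1 against wild type, they were −0.45, −0.18 and −0.43, so that probe B changed sign. Without knockout 1 they were −0.02, 0.34 and 0.01. The interval for probe A under the slide block was −0.91 to 0.02 (limma adjusted p = 0.888).

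Pdyn, the dynorphin precursor, had 2 probes that did not move together. Pdyn A measured 4.19, 4.35 and 4.29 in the knockouts, against 4.01, 4.14 and 4.08 in wild type, and every knockout array lay above every wild type array. Pdyn B, which shares 22 bases with Pdyn A, measured 3.27, 2.87 and 2.96 in the knockouts, against 3.01, 3.14 and 3.04 in wild type. At Pdyn B knockout 1 was the highest array and knockouts 2 and 3 the lowest. The log2 difference was 0.20 at Pdyn A (SE 0.09, 95% interval −0.02 to 0.42, limma adjusted p = 0.346) and −0.03 at Pdyn B (SE 0.13, limma adjusted p = 0.908). Pdyn A gave 0.11 and Pdyn B 0.20 with slide as a block (limma adjusted p = 0.953 and 0.916).

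Tac1 encodes the tachykinins substance P and neurokinin A. Tac1 A, on the neurokinin A codons, measured 0.68, 0.77 and 0.65 in the knockouts, against 1.02, 0.60 and 0.68 in wild type. Tac1 B measured 3.02, 3.46 and 3.08 in the knockouts, against 3.59, 3.14 and 3.22 in wild type. Wild type 1 was the highest array at both, and the groups overlapped. The log2 differences were −0.07 (SE 0.13) and −0.13 (SE 0.17), with limma adjusted p = 0.806 and 0.698.

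Markers of striatum, where Penk, Pdyn and Tac1 are abundant, were set beside these genes. All 10 striatal projection neuron markers were well above background on all 6 arrays. Their summed linear signal, in units of the array's 75th percentile, was 45.98 to 47.2 in the knockouts, against 46.3 to 48.0 in wild type. The groups overlapped in this sum, in which, as in the other sums below, the brightest probes weigh most. Knockout 1, the array with the lowest Penk, and knockout 2, with the highest, had sums of 47.2 and 45.98. Of the 10 striatal markers, 6 differences were above 0 and 4 below, with a median of 0.032. The largest differences in this list were below 0: Adora2a and Drd2, receptors of the striatal neurons that make enkephalin, gave −0.53 and −0.43, and Rgs9, a regulator of G-protein signalling, −0.37 (SE 0.14, 0.14 and 0.13, limma adjusted p = 0.307, 0.31 and 0.311). Adora2a measured 2.81, 2.48 and 2.33 in the knockouts, against 3.06, 3.05 and 3.09 in wild type. The groups did not overlap there, as at 21.6% of all tested probes. Knockout 1, lowest for Penk, was the highest of the knockouts for Adora2a. Under the slide block the 3 differences were −0.25, −0.18 and −0.23. Other probes of Adora2a gave 0.45 and −0.09, and the other Rgs9 probe 0.09. The part of striatal RNA in the Penk, Pdyn and Tac1 values was not tested.

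Nts encodes neurotensin, a peptide that acts on dopamine systems. It was dim on this array. Nts A measured −3.93, −3.04 and −3.39 in the knockouts, against −3.75, −3.92 and −3.82 in wild type. Knockouts 2 and 3, both on slide 2, lay above all wild type arrays, and knockout 1, on slide 1, was the lowest of all. The log2 difference was 0.37 (SE 0.22), and its 95% interval of −0.15 to 0.90 (0.899 to 1.87 of wild type in fold terms) was the widest of the members (limma adjusted p = 0.415). With slide as a block it was −0.10 (limma adjusted p = 0.968), and without knockout 1 it was 0.61 and passed (limma adjusted p = 0.0415). In the fit without knockout 1, 12.8% of all tested probes passed, and slide and genotype cannot be told apart. Nts B, the member probe that was not tested, measured −5.77, −5.16 and −5.97 in the knockouts, against −3.71, −6.06 and −6.39 in wild type. It was well above background in 0 of 3 knockout and 1 of 3 wild type samples, so no difference is given for it.

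**Figure D2:**
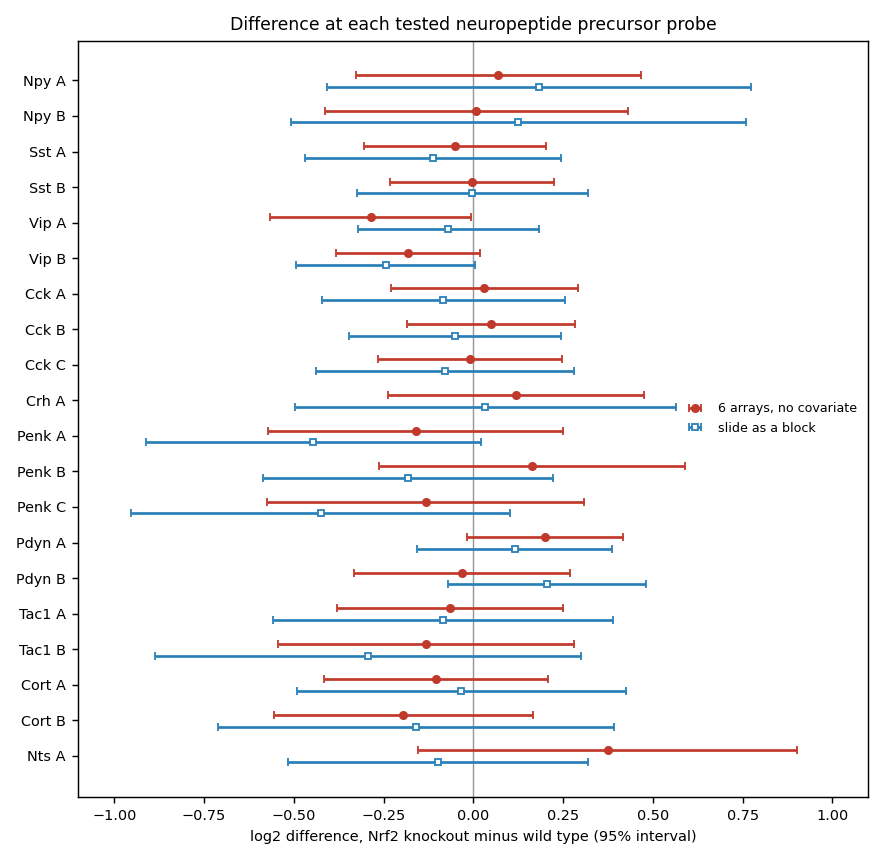
Log2 difference, knockout minus wild type (x axis), with its 95% interval for the 20 tested member probes (y axis), from all 6 arrays (filled circles) and with slide as a block (open squares). All intervals lie within 1 log2 unit of 0; Penk B, Pdyn B, Nts A, Cck A and Cck B lie on different sides of 0 in the 2 fits.

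Single arrays moved several members at once. Wild type 1 was the highest of the 6 arrays at 10 of the 20 probes and above the probe's own mean at 17, with a median deviation of 0.15 from that mean. Knockout 2 was the highest at 6 probes. Wild type 2 was the lowest at 8 probes and knockout 1 at 6, with median deviations of −0.13 and −0.068. The probes of a gene followed one another over the arrays to different degrees. The root mean square difference of their centred values was 0.033 to 0.053 for Cck, 0.043 for Sst and 0.073 for Npy, and it was 0.16 for Vip and 0.20 for Pdyn.

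The arrays with the lowest member values, knockout 1 and wild type 2, also had the lowest summed linear signals of several neuronal lists. For 19 peptide receptors the sums were 108, 122 and 121 in the knockouts, against 111, 103 and 115 in wild type. For 12 peptide processing and vesicle genes they were 1217, 1335 and 1307 in the knockouts, against 1289.7, 1218 and 1328 in wild type. The 14 interneuron markers, too, were lowest in knockout 1 (354.9) and wild type 2 (361.6). Other neuronal lists did not share this order. Markers of pyramidal neurons were lowest in wild types 1 and 3 (348.0 and 352.3), and striatal markers were highest in wild type 2 (48.0). A list of 16 further peptide precursor genes was lowest in knockout 3 (113.3). A list of 12 genes of activity-induced transcription, which holds genes that firing switches on (such as Fos, Arc and Egr1) and the factors Creb1, Crem and Crtc1, had sums of 218, 258 and 306 in the knockouts, against 259, 214 and 352 in wild type. Its highest sums were in wild type 3 and knockout 3, whose median member deviations were −0.019 and −0.055, so the order of the arrays for the members and for this list differed at the upper end. The part of such array-wide shifts in the members' values was not tested.

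**Figure D3:**
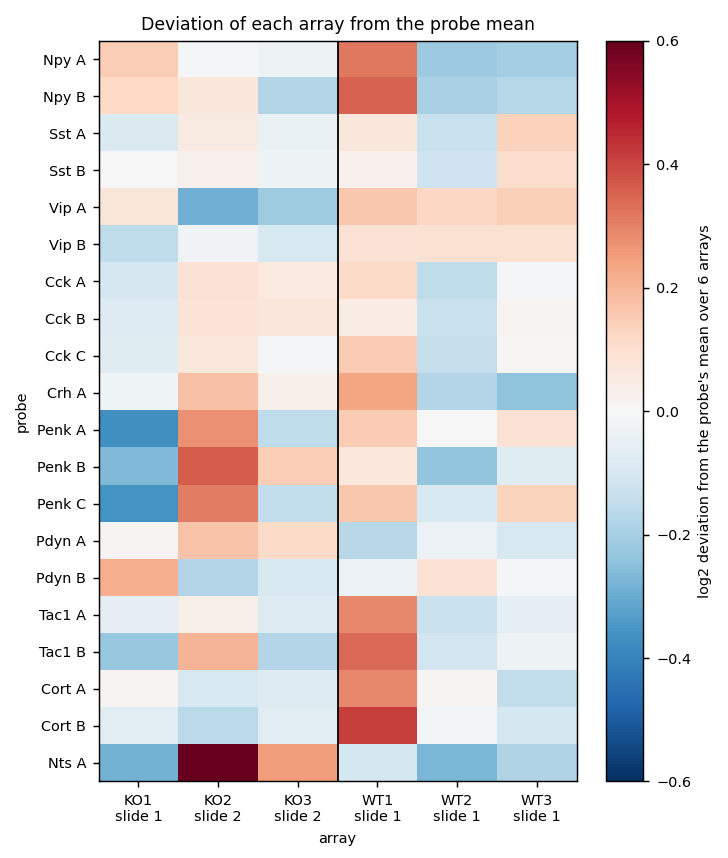
Deviation of each array (x axis, with its slide) from the probe's mean over the 6 arrays, in log2 units by colour (red above, blue below), for the 20 tested member probes (y axis). Wild type 1 is red at 17 probes; Penk and Nts A differ most between knockouts 1 and 2.

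The receptors of these peptides likewise had 0 probes past the threshold. Of 20 receptor genes, 19 were tested (Cckar was not), 10 differences were above 0 and 9 below, and the median was 0.039, beside −0.005 over all 18079 genes with a tested probe. The largest were at Tacr3, the neurokinin B receptor (−0.88, SE 0.21, limma adjusted p = 0.307), Vipr2, a receptor for Vip (0.85, SE 0.35, limma adjusted p = 0.328), and Ntsr1, a neurotensin receptor (0.36, SE 0.12, limma adjusted p = 0.31). Tacr3 measured −2.12, −1.55 and −2.10 in the knockouts, against −1.34, −0.98 and −0.82 in wild type. The groups did not overlap at Tacr3, and its other probe gave −1.30. Over all tested probes 21.6% did not overlap, and these receptors were named for the size of their differences. Ntsr1 measured 1.35, 1.68 and 1.49 in the knockouts, against 1.11, 1.04 and 1.27 in wild type, with no overlap and 0.53 at its other probe. Vipr2 measured −2.43, −1.18 and −2.34 in the knockouts, against −3.12, −2.79 and −2.59 in wild type, so the groups did not overlap and knockout 2 was far above the rest. With slide as a block the differences were −1.07, 0.41 and 0.20 at Tacr3, Vipr2 and Ntsr1 (limma adjusted p = 0.755, 0.957 and 0.934). The receptors for neuropeptide Y gave −0.27 (Npy1r), −0.22 (Npy2r) and −0.18 (Npy5r), and the somatostatin receptors 0.31 (Sstr1), 0.29 (Sstr2), −0.06 (Sstr3) and −0.03 (Sstr4), none past the threshold.

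At 1 probe per gene, that of highest mean, genes that cut, amidate, pack and release peptides gave differences from −0.09 to 0.18. For the 12 of them, all tested, 0 passed, 7 differences were above 0 and 5 below, and the median was 0.008. The largest were Chga, a granin of dense-core vesicles (0.18, SE 0.16), Scg2, another granin (0.12, SE 0.15), and Cadps, which primes these vesicles for release (0.12, SE 0.09). Their limma adjusted p-values were 0.559, 0.664 and 0.482. Other probes gave −0.02 for Chga, 0.33 for Scg2, and 0.18 and 0.15 for Cadps. The prohormone convertases Pcsk1 and Pcsk2 gave 0.06 and 0.07, and carboxypeptidase E (Cpe) −0.01.

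Another 16 peptide precursor genes were tested for comparison, and 0 passed, with 9 above 0 and 7 below and a median of 0.033. The largest differences were at Pomc, the precursor of melanocortins and beta-endorphin (0.56, SE 0.28, limma adjusted p = 0.37), Nxph4, a neurexophilin (−0.43, SE 0.16, limma adjusted p = 0.317), and Avp, for vasopressin (−0.37, SE 0.11, limma adjusted p = 0.307). Wild type 1 decided the value at Pomc, with −0.73 where the other arrays lay between 0.29 and 0.57. Other probes of these genes gave −0.19, 0.01 and 0.59, so none of the 3 held its size and direction at a further probe.

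Markers of the interneurons that make many of the members did not pass either. Of 14 interneuron markers, 0 passed, 4 were above 0 and 10 below, and the median was −0.092 (−0.14 with slide as a block). Among them, the GABA-synthesising enzymes Gad1 and Gad2 gave 0.02 and −0.08. The largest were Htr3a, the serotonin receptor subunit of the interneuron class that includes Vip cells (−0.46, SE 0.22), Prox1, a transcription factor of that class (−0.39, SE 0.33), and Calb2, for calretinin (0.31, SE 0.36), with limma adjusted p = 0.353, 0.551 and 0.651. Htr3a measured 0.46, 0.32 and 0.43 in the knockouts, against 0.38, 0.97 and 1.25 in wild type, and the groups overlapped through wild type 1. At Prox1, wild type 2 measured −1.46, where the other arrays lay between −2.79 and −2.57, and other probes gave −0.19 and −0.14. At Calb2, knockout 2 measured 3.28, where the other arrays lay between 1.85 and 2.35. Other Calb2 probes gave 0.29, 0.48 and 0.25, and the difference was −0.15 with slide as a block. The summed linear signal of the 14 markers was 354.9 to 396.3 in the knockouts, against 361.6 to 369.9 in wild type. The part of interneuron content in the Vip values was not tested.

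Defining markers of excitatory cortical neurons were well above background on all 6 arrays. So were all markers in the striatal (10), thalamic (5) and glial and vascular (12) lists. This measure therefore does not tell cortex from other brain regions. Of 10 pyramidal neuron markers, 0 passed, 9 were above 0 and 1 below, and the median was 0.059. Camk2a, a kinase of excitatory synapses, gave 0.13 (SE 0.15) and Bcl11b, a transcription factor of deep-layer neurons, 0.13 (SE 0.11), with limma adjusted p = 0.638 and 0.554. Other probes gave −0.22 and −0.04 for Camk2a, of opposite sign, and 0.31 and 0.35 for Bcl11b. The summed linear signal of the 10 markers was 361.6 to 422.7 in the knockouts, against 348.0 to 372.2 in wild type, and the groups overlapped. Camk2a, a bright probe in this sum, measured 7.52, 7.57 and 7.93 in the knockouts. Knockout 3, with the highest Camk2a, also had the highest sum. Striatal, hypothalamic, thalamic, choroid plexus, glial and activity-induced genes had 0 of 10, 7, 5, 4, 12 and 12 tested genes past the threshold, with medians of 0.032, 0.040, 0.060, −0.19, 0.00057 and −0.003.

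In the hypothalamic list, where Pomc and Avp above came first, Oxt, for oxytocin, gave 0.22, and −0.22 with slide as a block. The sum of the hypothalamic list was 2.38 to 2.95 in the knockouts, against 1.75 to 2.45 in wild type, and Sim1 was not tested. Hcrt, Pmch, Oxt, Avp, Agrp and Pomc were also among the 16 further precursor genes, so these lists are not independent. The thalamic genes Slc17a6, Prkcd and Tcf7l2 gave 0.18, −0.15 and −0.12, and −0.25, −0.36 and −0.03 with slide as a block. The choroid plexus genes Kl, Kcnj13 and Ttr gave −0.66, −0.55 and 0.22, with limma adjusted p = 0.325, 0.307 and 0.483, Folr1 gave 0.18, and Cldn2 and Otx2 were not tested.

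Among glial genes, Gfap of astrocytes gave −0.49 and the myelin gene Mbp 0.15 (limma adjusted p = 0.362 and 0.442). Other probes gave −0.46 and −0.45 for Gfap, and 0.11, −0.06 and −0.01 for Mbp. With slide as a block Gfap gave −0.87 and Mbp 0.09. In the activity-induced list, Npas4 gave 0.71 (SE 0.26, limma adjusted p = 0.318), Fos 0.36 and Crtc1 −0.27. Npas4 measured 0.52, 0.39 and −0.16 in the knockouts, against −0.40, −0.91 and −0.08 in wild type, so the groups overlapped.

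**Figure D4:**
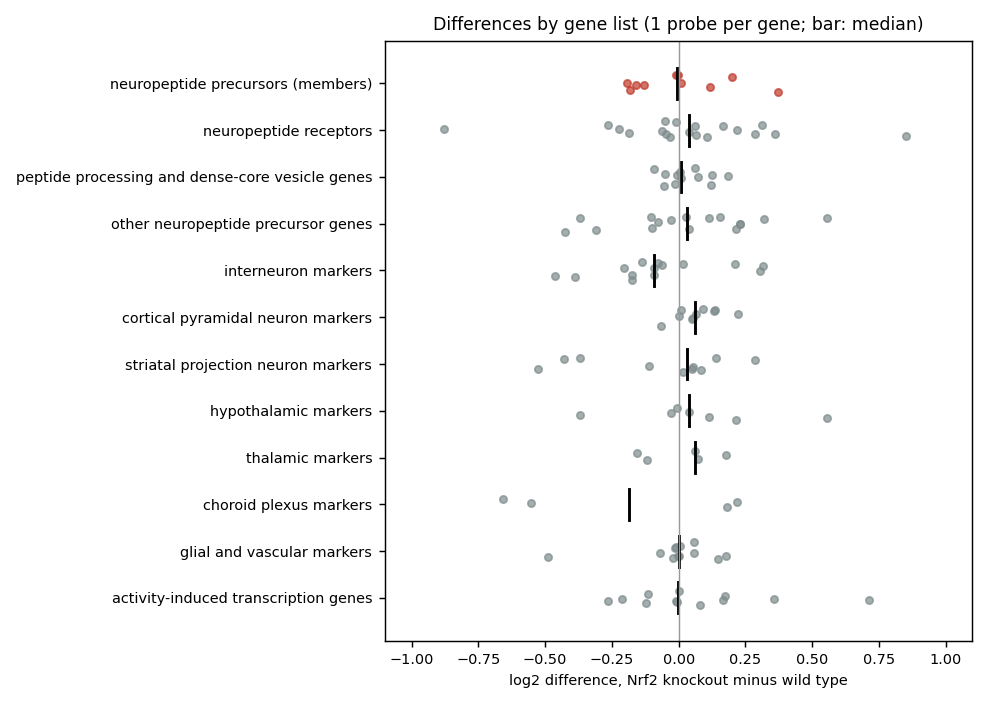
Log2 difference, knockout minus wild type (x axis), of each tested gene at its probe of highest mean signal, by gene list (y axis), with neuropeptide precursors in red and the list median as a black bar. The 10 precursors span −0.20 to 0.37, and 0 genes in any list shown passed the threshold.

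For the 2 member genes with the widest range over the arrays at their probe of highest mean, the genes with the most similar array pattern were sought among 17366 named coding genes, by the root mean square difference of centred values over 6 arrays. Nts A, with a range of 0.88, was nearest to Olfr1226 (0.044), Ush1c (0.053) and Acp4 (0.057). Ush1c measured −0.17, 0.75 and 0.49 in the knockouts, against 0.13, −0.01 and 0.03 in wild type, so it shared the high values of the slide 2 arrays. Penk A, with a range of 0.64, was nearest to Sppl2a (0.055), Adprhl1 (0.056) and Spata16 (0.060). Likeness over 6 arrays is a description, and slide is shared by every gene in it.

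Promoter windows (250 bases before to 50 after the gene start, RefSeq, GRCm38.p6) were at hand for 8 members: Cck, Cort, Npy, Nts, Pdyn, Sst, Tac1 and Vip. They were searched on both strands for the CREB site TGACGTCA, its shorter form TGACG, which lies within it, and TGACNNNGC, the core of the element that NRF2 binds. The full CREB site was found in 1 of the 8 members, Sst, and in 1.79% of 32851 windows. TGACG was found in 6 of the 8 (Cck, Cort, Nts, Sst, Tac1 and Vip) and in 20.8% of windows. TGACNNNGC was found in 0 of the 8 and in 12.4% of windows, which says only that these letters are not in the windows searched. The Sst site is shown because Sst is the member with the full motif, in capitals, starting 48 bases before the gene start, at chr16:23890874-23890903 on the minus strand of GRCm38.p6.
Sst promoter: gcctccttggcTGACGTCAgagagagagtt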

How the data were processed

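The deposited scanner output gives intensity values on a linear scale for each spot. Per the file headers, the software was Agilent Feature Extraction, release 12.0.3.1. Release 10.7 and limma are named in the submitters' processing notes. The authors' deposited value table matched quantile-normalised log2 signals closely. Its own steps are unstated in the sources read, and it was an alternative.

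Log2 of the processed signal minus the array's 75th percentile was taken. The 4974 control spots were dropped and outlier-flagged spots set to missing. No probe was saturated (0 on each array). Testing was limited to probes that the scanner software called well above background on all 3 arrays of either group. Knockout minus wild type was fitted without covariates in limma 3.58.1 (lmFit, eBayes; R 4.3.3). Its two-sided p-values were adjusted after Benjamini-Hochberg across the 105922 tested probes, and 0.05 was the threshold. Intervals are 95%. The script was tested on simulated data. The number of arrays limits the precision.

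Members and lists were chosen with earlier results of these data known. All member probes are reported. From each list, genes past the threshold would be named, otherwise the 3 tested genes with the largest difference at their probe of highest mean; some genes this rule selects are not reported here. Further genes named with values (Npy1r, Npy2r, Npy5r, Sstr1, Sstr2, Sstr3, Sstr4, Folr1, Pcsk1, Pcsk2, Cpe, Gad1 and Gad2) were chosen after their values were seen. A GRCm38.p6 table gave the symbols of 48048 of 48467 RefSeq probes. Alternatives were normexp background correction (offset 50), quantile normalisation, the authors' table, other filters, slide, replicate number as a block, and each array left out.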

Additional observations from a re-analysis of the deposited data

How the results depend on the processing

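The count of changed member probes was 0 in the 8 alternatives other than leaving out an array and ranged from 0 to 2 when arrays were left out one at a time; the 2 were Vip A and Nts A without knockout 1. In limma, member probes at an unadjusted p under 0.05 numbered 1, with 4 without knockout 1, 2 under normexp and on slide 1 alone, 1 among probes well above background on all 6 arrays and without knockout 2, and 0 in the other alternatives. The count over all tested probes was 10, and it was 16 with normexp, 4 among probes well above background on all 6 arrays, 4 on slide 1 alone, and 5 to 13558 when an array was left out: 13558 without knockout 1, 50 without wild type 1, 6 without knockout 2 or wild type 2 and 5 without knockout 3 or wild type 3. Replicate numbers are shared by the groups but did not pair the samples (correlations of deviations −0.013, −0.050 and 0.038). With replicate number as a block, 2 probes and 0 member probes passed.

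Of 280 member values under alternatives, 243 kept direction and side of the threshold. Changes of sign outside the left-out arrays were Npy B at −0.0073 (quantile) and −0.025 (authors' table), Cck C at 0.032 (quantile) and, both with slide as a block and on slide 1 alone, Cck A at −0.084, Cck B at −0.052, Penk B at −0.18, Pdyn B at 0.20 and Nts A at −0.099. With 1 array left out, values ran from −0.021 to 0.246 at Npy A, −0.088 to 0.19 at Npy B, −0.13 to 0.0069 at Sst A, −0.068 to 0.048 at Sst B, −0.037 to 0.096 at Cck A, −0.0066 to 0.099 at Cck B, −0.083 to 0.064 at Cck C, −0.32 to 0.014 at Penk C, −0.15 to 0.048 at Pdyn B, −0.15 to 0.061 at Tac1 A, −0.27 to 0.0051 at Tac1 B, −0.20 to 0.014 at Cort A, −0.39 to −0.21 at Vip A, 0.029 to 0.27 at Crh A, −0.34 to −0.018 at Penk A, 0.024 to 0.34 at Penk B, −0.30 to −0.037 at Cort B and 0.17 to 0.61 at Nts A. Vip B ran from −0.22 to −0.15 and Pdyn A from 0.16 to 0.24. The cause was not tested. List counts were 0 with slide as a block and, with arrays left out, 0 to 3 for other precursors, 0 to 2 for striatal, 0 to 1 for interneuron and 0 to 1 for hypothalamic markers, and 0 for the rest, each maximum without knockout 1, where 1636 of all 18079 genes passed. Signal over background limits Nts B and Nts A most.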
